A study of Mus musculus with 9 samples.

Results

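The killer cell lectin-like receptors Klrd1, Klre1, Klrk1, Klrg1, Klrc1 and Klrc2 were followed in RORγt+ and Foxp3+ T cells that had been sorted from 2 kinds of culture. These 6 genes were selected on their measured values in the same 9 libraries, so the comparisons among the groups are given as descriptions, with no test. Of the 6 receptors, 5 had a row among the 24062 genes of the count table, 4 had at least 1 count and 2, Klrd1 and Klre1, reached a summed count of 10. Klrc2 was not analysed here.

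Naïve CD4+ T cells came from spleens of male dual reporter mice, aged 6 to 10 weeks, which carried a transgenic GFP reporter of RORγt and Foxp3-IRES-mRFP, and each reporter was heterozygous in all groups. The cells were activated with anti-CD3 and anti-CD28 beads for 3 days. The Th17 culture received 5 ng/ml TGFβ and 20 ng/ml IL-6, and it gave the SPR cells (RORγt+ only) and the DP cells (RORγt+Foxp3+). The Treg culture received 10 ng/ml TGFβ and 5 ng/ml IL-2, and it gave the SPF cells (Foxp3+ only). Live CD4+ cells were sorted by the reporters, and each group had 3 libraries. SPF differed from the other groups in culture, added cytokines, TGFβ dose and sort at once, which cannot be told apart.

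Killer cell lectin-like receptors are C-type lectin-like membrane proteins that were first described on natural killer (NK) cells and are also carried by some activated T cells. Klrd1 encodes CD94, which pairs with an NKG2 chain to bind the non-classical MHC molecule Qa-1. The NKG2A chain (Klrc1) inhibits, and the NKG2C chain (Klrc2) activates through the adaptor DAP12. Klrk1 encodes NKG2D, an activating receptor for stress-induced ligands that signals through DAP10, and Klrg1 encodes an inhibitory receptor for cadherins. Klre1 encodes a chain that, in rodents, pairs with Klri1 to inhibit and with Klri2 to activate.

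In the mm10 build (GRCm38, GENCODE M21), all 6 genes are on chromosome 6. Klre1 (ENSMUSG00000050241.8) spans bases 129577905 to 129585827 and Klrd1 (ENSMUSG00000030165.16) spans bases 129591782 to 129598775, both on the plus strand with 5954 bases between them. Klrk1 (129610323 to 129623864), Klrc2 (129647496 to 129660689) and Klrc1 (129666015 to 129678973) follow on the minus strand. Klrg1 lies apart from them, at 122270596 to 122282882 on the minus strand. None of the 6 overlaps another annotated gene.

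The start of Klre1 is shown because it is one of the pair of genes that carried nearly all of the counts, and its promoter is listed in RefSeq (GRCm38.p6). Of the 2 windows listed for Klre1, the one shown, chr6:129577963-129578262 on the plus strand, holds 250 bases before the RefSeq start and 50 after it. This start differs from that of GENCODE, and the whole window lies inside the GENCODE span of the gene. Capitals mark the motifs that were found.
Klre1 promoter: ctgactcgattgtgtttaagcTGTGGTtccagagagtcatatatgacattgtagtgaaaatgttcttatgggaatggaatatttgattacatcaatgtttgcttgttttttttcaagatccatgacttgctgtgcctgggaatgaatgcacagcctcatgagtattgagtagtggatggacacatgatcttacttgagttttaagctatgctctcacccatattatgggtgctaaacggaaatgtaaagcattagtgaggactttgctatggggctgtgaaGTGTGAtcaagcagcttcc
Positions count from the first transcribed base. The first capitals are the RUNX motif TGTGGT at position -229, and the second are the T-box motif TCACAC, read on the opposite strand, at position 32. The second window, which begins further downstream, holds the same T-box match at position -42 and no RUNX match. TGTGGT was present in 16.8% and TCACAC in 14.5% of the 32851 promoter windows of the same length, searched on both strands. The ROR motif AGGTCA (16.3% of windows), the AP-1 motif TGACTCA (5.20%), the STAT motif TTCNNNGAA (8.30%) and the ETS motif CAGGAAG (13.3%) were not in this window, which says only that these letters do not occur there.

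RNA was measured with 3′ MARS-seq, and a level is given in CPM, a gene's count scaled to the total of its library. Library totals ran from 1495152 to 3759662 counts, so that 1 count was worth 0.266 to 0.669 CPM. Counts summed over a group and 3 counts as the limit that a count of 0 allows put the floor at 0.335 CPM in SPR, 0.475 in DP and 0.461 in SPF. Intervals cover counting error only. The Foxp3 reporter's gene followed the sort, with Foxp3 at 7.01 ± 0.542 CPM in SPR, 100 ± 27.0 in DP and 228 ± 18.1 in SPF (SD, n = 3). In bulk samples, more cells that carry a receptor and more RNA per cell cannot be told apart.

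Klrd1 and Klre1 were present in both populations of the Th17 culture and had few counts in the Treg culture. Klrd1 and Klre1 together gave 515 of the 531 receptor counts, 97.0%. All receptors summed to 24.5 ± 1.65 CPM in SPR, 47.3 ± 13.0 in DP and 1.84 ± 0.789 in SPF (SD, n = 3). The receptor total was therefore nearly even among the SPR libraries, at 22.9 to 26.2 CPM, whereas the DP libraries ranged from 34.9 to 60.9 CPM.

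Klrd1, the CD94 chain, was highest in DP cells. It had 41, 15 and 35 counts in SPR replicates 1 to 3, which is 14.3, 6.46 and 9.31 CPM. DP replicates 1 to 3 had 47, 100 and 55 counts, or 19.8, 40.9 and 36.8 CPM. The SPF libraries had 4, 2 and 2 counts, or 1.81, 0.930 and 0.929 CPM. Every DP library was above every SPR library, and every SPR library was above every SPF library. The means were 10.0 ± 3.97 CPM in SPR, 32.5 ± 11.2 in DP and 1.22 ± 0.511 in SPF (SD, n = 3).

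From the counts summed over a group, Klrd1 was 8.27-fold higher in SPR than in SPF (95% counting interval 4.02 to 19.7) and 26.0-fold higher in DP than in SPF (12.9 to 61.0). Between the populations of the Th17 culture it was 3.14-fold higher in DP (2.44 to 4.07). With each library left out in turn, the ratio of mean CPM of DP over SPR stayed between 2.75 and 4.12. The order of the levels was thus DP, SPR and SPF, with no overlap between neighbours.

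Klre1, the partner chain of the Klri receptors, was as high in SPR as in DP cells within the spread. SPR replicates 1 to 3 had 28, 39 and 50 counts, or 9.77, 16.8 and 13.3 CPM. DP replicates 1 to 3 had 36, 45 and 12 counts, or 15.1, 18.4 and 8.03 CPM. The SPF libraries had 1, 0 and 3 counts, or 0.454, 0 and 1.39 CPM. The SPR and DP libraries were interleaved, and all 6 were above the 3 SPF libraries. The means were 13.3 ± 3.51, 13.9 ± 5.30 and 0.616 ± 0.711 CPM in SPR, DP and SPF (SD, n = 3).

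The summed counts of Klre1 were 21.3-fold higher in SPR than in SPF (8.09 to 79.3) and 23.9-fold higher in DP than in SPF (9.04 to 89.7). These ratios rest on 4 counts in SPF. SPF replicate 3 gave 3 of them, and without it the ratios of mean CPM moved from 21.6 to 58.6 for SPR and from 22.5 to 61.1 for DP. Klre1 in DP was 1.13-fold of SPR, with an interval from 0.848 to 1.49, which leaves a difference of either sign possible at this depth.

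**Figure D1:**
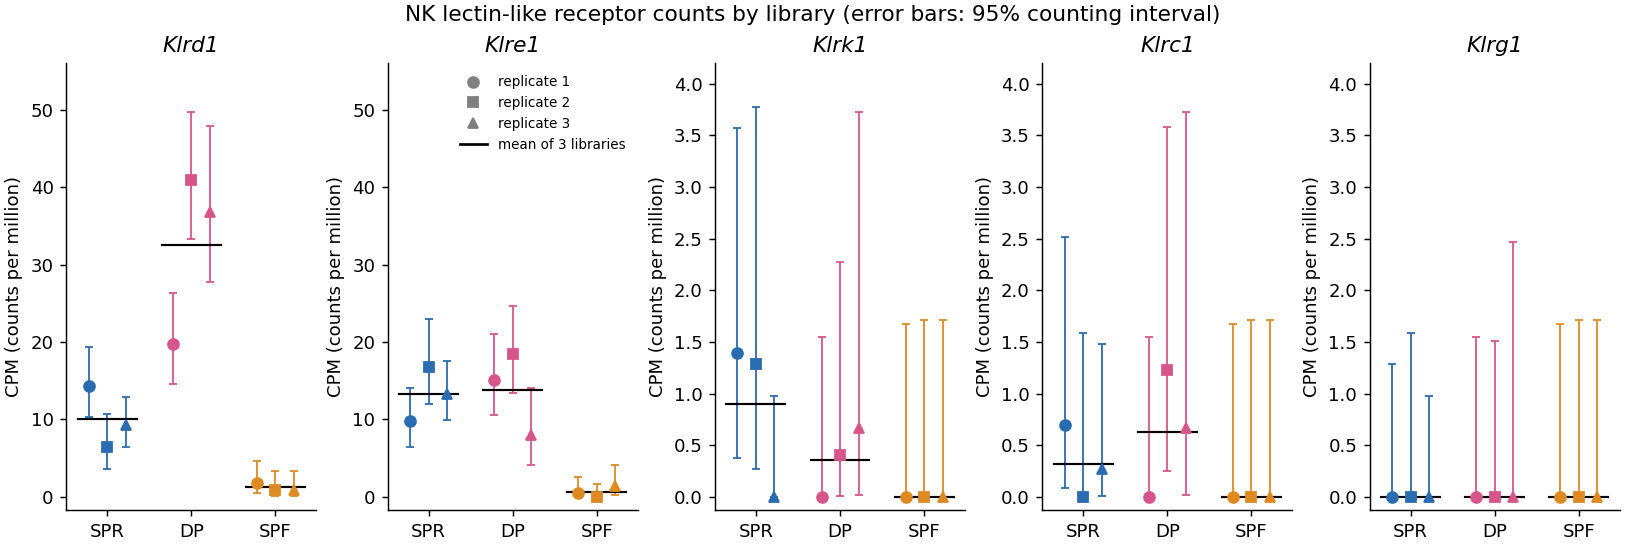
CPM of the 5 receptors with a row, in each of the 9 libraries; error bars are 95% counting intervals, marker shapes are replicates and lines are means of 3 libraries. The vertical axis of Klrd1 and Klre1 differs from that of the other genes: Klrd1 reaches 40.9 CPM in DP replicate 2, while Klrk1 and Klrc1 stay at or below 1.40 CPM and Klrg1 is at 0.

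The other receptors were at the edge of detection. Klrk1 (NKG2D) had 4, 3 and 0 counts in SPR, 0, 1 and 1 in DP and none in SPF. The SPR library without a count was the deepest of all, so that its limit is 0.798 CPM against 1.40 and 1.29 CPM measured in the other SPR libraries. Summed over the group, 7 counts in SPR were at least 1.70-fold higher than the SPF floor (lower 95% counting limit 1.05). Klrk1 in DP was 0.405-fold of SPR (0.0410 to 2.13), a difference that was not detectable at this depth.

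Klrc1 (NKG2A) had 2, 0 and 1 counts in SPR, 0, 3 and 1 in DP and none in SPF. The DP sum of 4 counts was at least 1.37-fold higher than the SPF floor, but the lower 95% counting limit of this ratio was 0.680, which includes equal levels, and DP over SPR was 1.89 (0.319 to 12.9). These few counts are also uncertain in identity, since 47.3% to 62.3% of the 40-base words in the last 500 bases of the Klrc1 transcripts occur in Klrc2 or Klrc3 as well. No such word was shared with another gene for Klrd1, Klre1, Klrk1 or Klrg1. Klrg1 had 0 counts in all 9 libraries, which allows up to 0.335, 0.475 and 0.461 CPM in SPR, DP and SPF. The NKG2 chain with a row, Klrc1, thus had 7 counts in all beside 301 of Klrd1.

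Libraries in which all values of the higher group exceed all values of the lower are common in these data. Over the 13807 genes with a summed count of at least 10, SPR was above SPF without overlap in 18.1%, DP above SPF in 16.4% and DP above SPR in 7.65%. Klrd1 and Klre1 were the 2 receptors among these genes. Both were above SPF in SPR and in DP, and Klrd1 alone was higher in DP than in SPR without overlap. The receptors were selected on these contrasts, so nothing is read from the counts.

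SPR and DP cells came from the same Th17 culture conditions, and libraries of equal replicate number were treated as pairs. The labels do not state such pairs. This pairing rests on deviations from the group means, which correlated at 0.24 to 0.43 for equal numbers and at -0.36 to -0.021 for unequal ones. The deviations of the 3 libraries of a group sum to 0. Negative values for unequal numbers therefore follow from the positive ones and are no further evidence of pairs. The DP over SPR ratio of Klrd1 was 1.38 (0.890 to 2.15) in pair 1, 6.33 (3.66 to 11.7) in pair 2 and 3.95 (2.54 to 6.22) in pair 3. Klrd1 was higher in DP in all 3 pairs, and in pair 1 the interval included equal levels. For Klre1 the ratio was 1.55, 1.10 and 0.603 in pairs 1 to 3, higher in DP in 2 pairs and lower in the other. Klrd1 thus kept 1 direction over the pairs with ratios that ranged widely, and Klre1 did not.

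Both genes being counted in one library, the share of Klrd1 in the sum of Klrd1 and Klre1 does not depend on the library total. It is compared between libraries and not read as which gene had more RNA, since 3′ counts were not scaled to each gene. In SPR replicates 1 to 3 the share was 59.4% (95% Wilson interval 47.6 to 70.2), 27.8% (17.6 to 40.9) and 41.2% (31.3 to 51.8). In DP replicates 1 to 3 it was 56.6% (45.9 to 66.8), 69.0% (61.0 to 75.9) and 82.1% (71.3 to 89.4). Over summed counts, Klrd1 made up 43.8% (37.2 to 50.5) in SPR and 68.5% (63.0 to 73.5) in DP. The groups overlapped, because SPR replicate 1 was above DP replicate 1, and pairs 2 and 3 carried the difference. In SPF the share rested on 12 counts and was 66.7% (39.1 to 86.2).

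**Figure D2:**
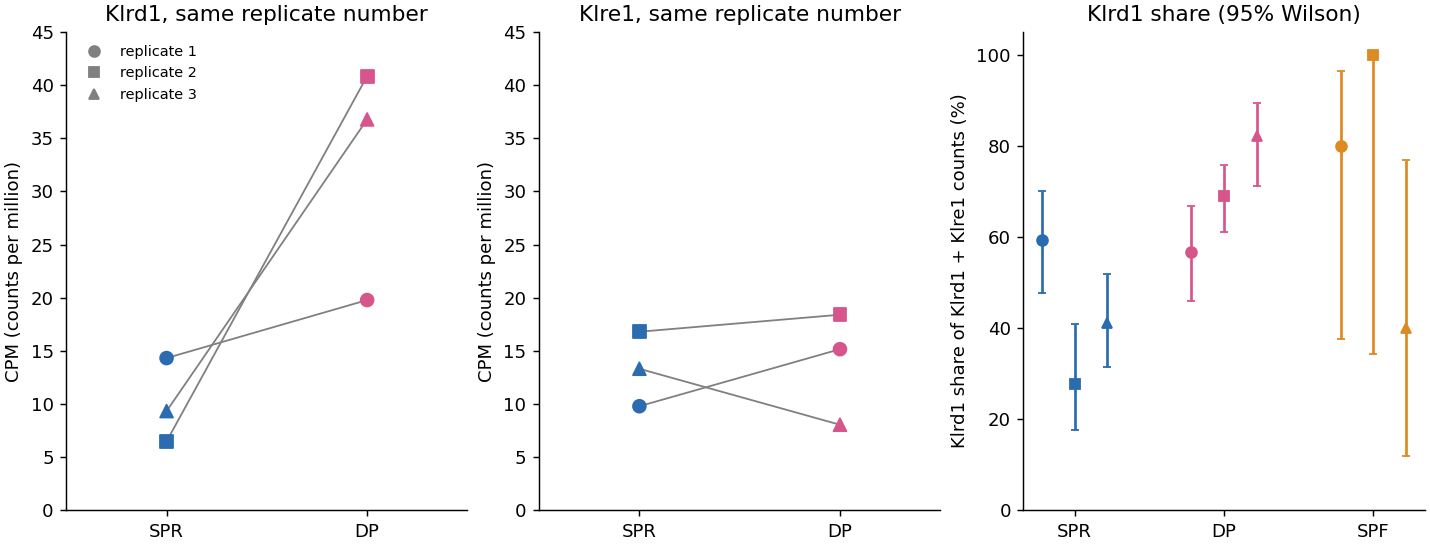
CPM of Klrd1 (left) and Klre1 (middle) in SPR and DP libraries, with lines joining equal replicate numbers, and the share of Klrd1 in the Klrd1 and Klre1 counts of each library (right, %, with 95% Wilson intervals). All 3 lines rise for Klrd1, whereas for Klre1 2 rise and 1 falls; the SPF shares rest on 2 to 5 counts each.

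A similarity index places DP between the other groups, where 1 is the SPR level and -1 the SPF level, on log2(CPM + 1). Values from 0.5 to 1.5 count as SPR-like and values above 1.5 as distinct. Klrd1 had an index of 2.41 and Klre1 of 1.01. With each library left out in turn, Klrd1 ranged from 2.07 to 2.87 and Klre1 from 0.867 to 1.21, so both stayed within their class.

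DP replicates 2 and 3, which had the highest Klrd1 levels, also stood apart in their mitochondrial-encoded RNA. It made up 0.287% and 0.521% of their counts, against 0.0206% to 0.0576% in the other 7 libraries. The part of this in the result was not tested. In DP replicate 1, at 0.0542%, Klrd1 was at 19.8 CPM, and its ratio to SPR replicate 1 was the one whose interval included equal levels.

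Klrd1 and Klre1 lie in the NK gene complex, a cluster of lectin-like genes. From Cd69 to Klra1 (bases 129267325 to 130386874) the annotation has 53 genes, of which 18 had a row in the table. Of these 18, 4 had no count, 10 had fewer than 30 and 4 had at least 30, namely Cd69, Gabarapl1, Klre1 and Klrd1. Gabarapl1, which encodes an autophagy protein of another family and lies 54.0 kb before the Klrd1 start, was at 125 CPM in SPR, 156 in DP and 32.4 in SPF by summed counts. Cd69, an early activation lectin at the start of this stretch, was at 31.8, 57.4 and 29.2 CPM. Within the stretch from Cd69 to Klra1, high counts were thus limited to these 4 of the 18 genes with a row. Clec2d and Clec2i, which were listed as lectins of the complex but lie outside this stretch, had 785 and 251 counts over all libraries.

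**Figure D3:**
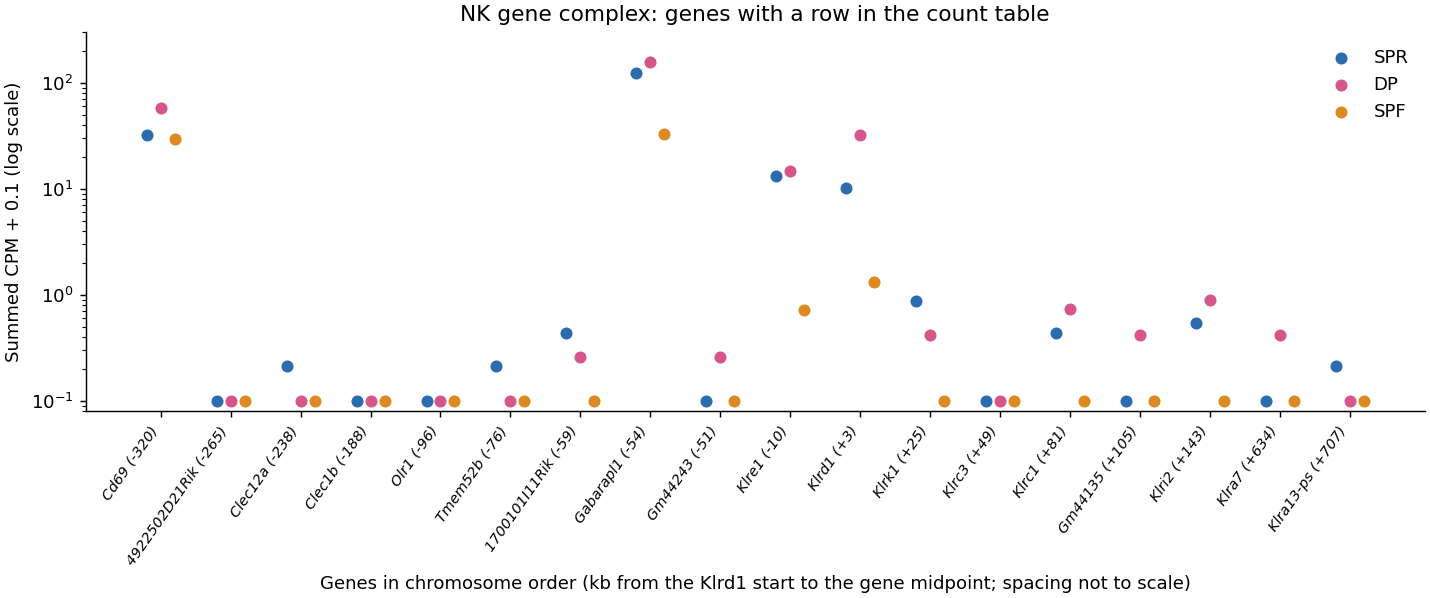
Summed CPM plus 0.1 (log axis) of the 18 genes with a row from Cd69 to Klra1 in the NK gene complex, for SPR, DP and SPF. Genes are in chromosome order, and the numbers beside the names are kb from the Klrd1 start to the gene midpoint. Klrd1 and Klre1 are at 10.2 and 13.1 CPM in SPR, and most of their neighbours are near 0 in every group.

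Among the other killer cell lectin-like receptors, 11 of 24 listed genes had a row and none reached 10 counts. Their sum was 12 counts in SPR, 13 in DP and 0 in SPF, and Klra2, Klrb1, Klrb1a, Klrb1c and Klrc3 had no count in any library. Klri2, the activating partner of Klre1, was singled out after its values were seen. It had 0, 2 and 2 counts in SPR, 2, 2 and 1 in DP and none in SPF. Its DP sum was at least 1.72-fold higher than the SPF floor, with a lower 95% counting limit of 0.943, which includes equal levels. Klrb1f, a receptor of the NKR-P1 family, had 4 counts in SPR, 3 in DP and none in SPF.

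The cell types that usually carry these receptors were checked by their markers. Of 9 NK cell markers 6 had a row, and they summed to 5.60 to 13.0 CPM in SPR, from 17.2 to 22.1 in DP and from 21.4 to 48.4 in SPF. The sum was higher in DP than in SPR without overlap, as Klrd1 was, and it reached its highest values in SPF (overlapping with DP), where Klrd1 and Klre1 were lowest. In SPF, Fcgr3 gave 134 of the 223 marker counts, and 91 of these were in SPF replicate 2. The part of NK cells in the receptor levels was not tested. Klrb1c (NK1.1) was at 0 in all libraries, and Itga2 had 0 to 3 counts in each. Eomes, a transcription factor of NK cells, had 1 count in SPR, 0 in DP and 8 in SPF. Gzma reached 18 counts in SPR replicate 1 and 10 in DP replicate 1 and had 0 to 2 in each of the other libraries. Prf1 (perforin) was at 3.14 to 10.1 CPM in SPR, from 13.5 to 19.4 in DP and from 5.58 to 18.1 in SPF. Its DP libraries were thus all above its SPR libraries. Prf1 gave 32, 37 and 29 of the 48, 42 and 33 marker counts in DP replicates 1 to 3. The means of Gzma, Itga2 and Eomes were lower in DP than in SPR, and that of Fcgr3 was 1.70 CPM in DP against 1.46 in SPR.

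CD8 T cell markers (Cd8a and Cd8b1) summed to 18.1 to 32.1 CPM in SPR, from 16.7 to 23.6 in DP and from 16.3 to 32.2 in SPF. The groups overlapped in this sum, in which Cd8b1 had 425 counts and Cd8a 56. Cd8a alone was at 3.04 ± 3.57 CPM in SPR, 3.73 ± 2.96 in DP and 0.930 ± 0.930 in SPF (SD, n = 3). Its DP libraries (from 2.01 CPM) were all above SPF (up to 1.86 CPM), and SPR overlapped with both. Cd8a was highest in SPR replicate 1 and DP replicate 1, as Gzma was. Klrd1 was highest of SPR in the former and lowest of DP in the latter. The part of CD8 T cells in the receptor levels was not tested. The 5 γδ T cell markers summed to 0.798 to 1.29 CPM, 1.26 to 4.50 CPM and 1.40 to 4.18 CPM. B cell markers were at 3.44 to 7.45, 4.63 to 5.72 and 14.4 to 27.4 CPM, and myeloid markers at 1.06 to 2.09, 0.421 to 1.34 and 3.25 to 11.3 CPM, with Csf1r and Cd14 at 0. Both of these sums were highest in SPF, and their part in the Klrd1 and Klre1 levels was not tested. All 7 CD4 T cell markers had counts, and Cd4 itself was at 517 ± 52.8 CPM in SPR, 353 ± 40.8 in DP and 622 ± 29.2 in SPF (SD, n = 3). Cd28 had another order, at 36.3 ± 17.2, 53.9 ± 17.3 and 17.4 ± 7.25 CPM.

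The genes that the receptors work with were compared in a fit of all genes (edgeR quasi-likelihood test, Benjamini-Hochberg adjusted p under 0.05). Of the 13807 genes tested, 6.81% were called higher and 5.02% lower in SPR than in SPF, and 5.29% were higher and 3.68% lower in DP than in SPF. Between DP and SPR 0.00724% were called, a single gene, Foxp3. With the replicate number as a block, fitted on the SPR and DP libraries alone, 2.8% of 13091 genes were called.

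Of 12 adaptors and signalling partners, 1 was lower in SPR than in SPF, 2 were lower in DP and none was higher. The list's median log2 change was -0.24 in SPR and -0.11 in DP, beside 0.03 and 0.02 over all genes. Hcst, which encodes the NKG2D adaptor DAP10, was at 163 ± 19.4 CPM in SPR, 165 ± 21.1 in DP and 325 ± 73.1 in SPF (SD, n = 3). It changed by -1.01 ± 0.20 in SPR (log2, SE, edgeR adjusted p = 0.00593) and by -1.04 ± 0.20 in DP (edgeR adjusted p = 0.00732). Cd247, the CD3 zeta chain, was the other gene lower in DP, at -0.87 ± 0.24 (edgeR adjusted p = 0.0431). This call was lost without any 1 of the DP libraries, SPF replicate 1 or SPF replicate 2, and with library totals. Tyrobp (DAP12) had 10, 7 and 4 counts in SPR, DP and SPF, and its values did not pass the test. DAP10 RNA was therefore lower in SPR and DP than in SPF, where Klrd1 and Klre1 had few counts. Between DP and SPR it was level (log2 change -0.03), although Klrd1 was higher in DP. DAP12 RNA was near the floor in all groups.

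Syk, a kinase listed among the signalling partners, was at 5.77 ± 5.16 CPM in SPR and 19.3 ± 4.94 CPM in DP (SD, n = 3). It was the adaptor list's only gene called between DP and SPR with the replicate block, at 1.85 ± 0.39 (log2, edgeR adjusted p = 0.0154), and it was not called without the block (edgeR adjusted p = 0.694).

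Of the 16 ligand genes listed, 9 had a row and 6 were tested. The single call in each comparison with SPF was Cdh1 (E-cadherin, a ligand of Klrg1), and no ligand was called between DP and SPR with or without the block. Cdh1 had 7, 2 and 2 counts in SPR, 5, 2 and 2 in DP and 166, 34 and 22 in SPF. All SPF libraries were above the others, although SPF replicate 1 gave most of the counts. The log2 change was -4.72 ± 0.80 in SPR (edgeR adjusted p = 0.00266) and -4.59 ± 0.83 in DP (edgeR adjusted p = 0.00586). H2-T23, which encodes Qa-1, the ligand of CD94 with NKG2, was at 265 ± 47.0 CPM in SPR, 251 ± 90.9 in DP and 404 ± 193 in SPF and was not called (edgeR adjusted p = 0.248 and 0.184 against SPF). The ligands' median log2 change was -0.51 in SPR and -0.68 in DP against SPF. The NKG2D ligand Ulbp1 had 23, 7 and 28 counts in SPR, DP and SPF and was not called.

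The CLEC2 lectins, among them ligands of NKR-P1 receptors, changed in both directions. Of 4 tested genes of the CLEC2 and CD69 list, 1 was higher and 2 were lower in SPR than in SPF, and 1 was lower in DP. The list's median log2 change was -0.71 in SPR and 0.29 in DP. Clec2i fell by 3.02 in SPR (log2, SE 0.33, edgeR adjusted p = 0.000153) and by 2.13 in DP (SE 0.31, edgeR adjusted p = 0.00187), from 27.5 ± 1.15 CPM in SPF. Clec2d was at 19.3 ± 3.47 CPM in SPR, 43.6 ± 12.6 in DP and 51.8 ± 17.0 in SPF (SD, n = 3), and it was lower in SPR than in SPF (edgeR adjusted p = 0.00970). Clec2l, with 24 counts in SPR and 0 in SPF, was at least 5.82-fold higher in SPR than the SPF floor (lower 95% counting limit 4.38), a call (edgeR adjusted p = 0.0336) that was lost without any 1 of the SPR libraries, SPF replicate 1 or SPF replicate 2. With the replicate block, Cd69 (0.99 ± 0.25, edgeR adjusted p = 0.0454) and Clec2d (1.10 ± 0.21, edgeR adjusted p = 0.00940) were higher in DP than in SPR, the direction that Klrd1 showed.

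Cytokine receptors that are known to act on NK receptor genes changed in both directions. Of 11 tested, 3 were higher (Il12rb1, Il12rb2 and Il21r) and 2 lower (Il2rb and Tgfbr1) in SPR than in SPF. The same 5 genes were called in DP, with Il2ra higher as well. The median log2 change was -0.15 in SPR and -0.03 in DP. Il12rb2, a chain of the IL-12 receptor, had 114, 150 and 117 counts in SPR, 90, 103 and 30 in DP and 6, 0 and 1 in SPF. It changed by 5.29 ± 0.61 in SPR (log2, SE, edgeR adjusted p = 0.000232) and by 4.84 ± 0.62 in DP (edgeR adjusted p = 0.000664). Il12rb1 rose likewise, by 3.09 ± 0.46 and 2.81 ± 0.47. Il2rb, the shared chain of the IL-2 and IL-15 receptors, fell by 1.01 in DP (SE 0.19, edgeR adjusted p = 0.00672), and Tgfbr1 fell by 1.67 in SPR (SE 0.20, edgeR adjusted p = 0.000283). The call of Il21r was lost without SPF replicate 2 in both comparisons, and in SPR also without SPR replicate 1, SPR replicate 2 or SPF replicate 3. That of Il2rb in SPR was lost without SPR replicate 1. The call of Il2ra in DP was lost without any 1 of the DP libraries, SPF replicate 1 or SPF replicate 2, and with only the groups compared. With the block, Il2ra (0.65 ± 0.15, edgeR adjusted p = 0.0254) and Tgfbr1 (0.70 ± 0.17, edgeR adjusted p = 0.0300) were higher in DP than in SPR.

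**Figure D4:**
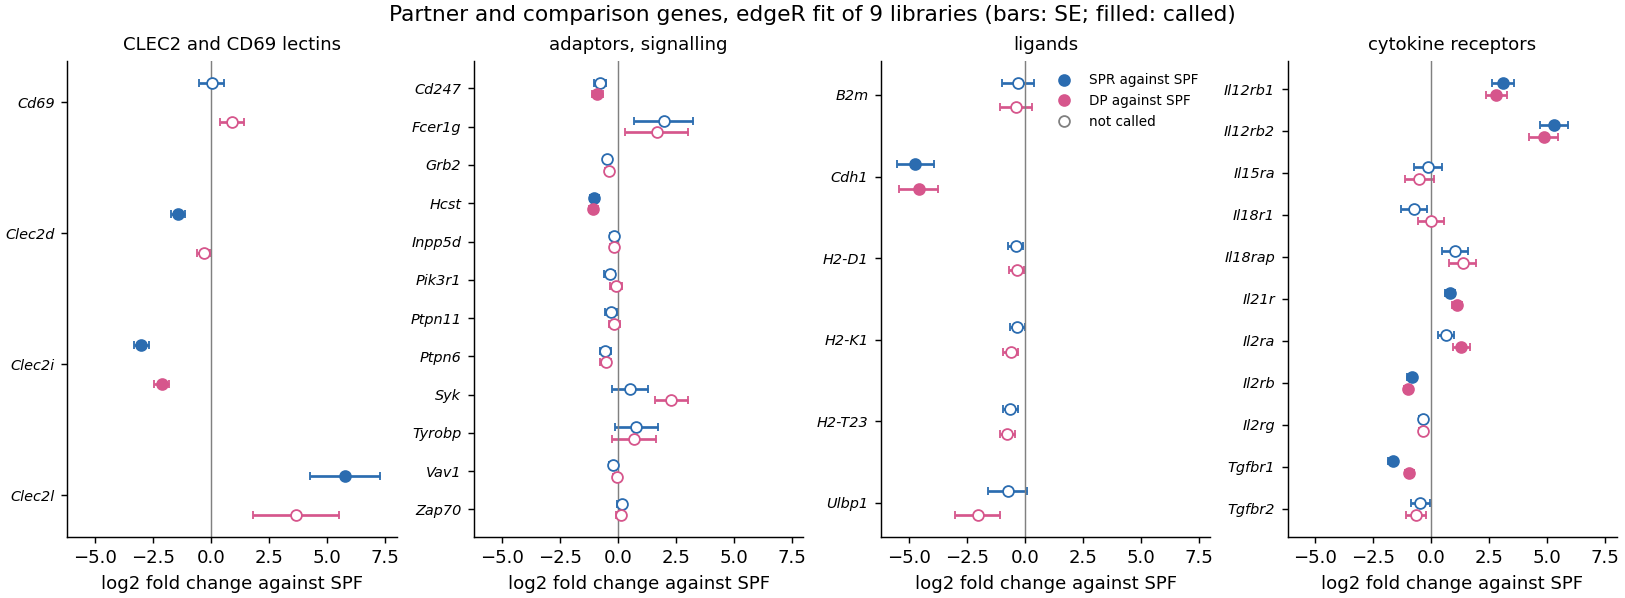
Log2 fold change against SPF with its standard error for the tested genes of 4 lists, for SPR and DP; filled symbols were called by the edgeR test. Hcst and Cdh1 lie below 0 in both comparisons, and Il12rb1 and Il12rb2 lie above 0 in both.

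The cytotoxic genes that accompany these receptors in NK cells changed in both directions. Of 12 tested, 2 were higher (Gzmb and Srgn) and 2 lower (Nkg7 and Xcl1) in SPR than in SPF, and 1 was higher (Gzmb) and 1 lower (Xcl1) in DP. The list's median log2 change was 0.01 in SPR and -0.14 in DP. The call of Srgn was lost without SPR replicate 2, SPR replicate 3 or SPF replicate 2. That of Nkg7 was lost without SPR replicate 1, SPR replicate 3 or SPF replicate 1, and with only the groups compared. Gzmb (granzyme B) was at 10.8 ± 5.46 CPM in SPR, 8.22 ± 3.78 in DP and 0.760 ± 0.943 in SPF (SD, n = 3), a log2 change of 3.72 ± 0.75 in SPR (edgeR adjusted p = 0.00683). In DP the change of Gzmb was 3.30 ± 0.77 (edgeR adjusted p = 0.0207), a call that was lost without DP replicate 1, DP replicate 2 or SPF replicate 2. Xcl1, a chemokine of NK and CD8 T cells, had 23, 5 and 2 counts in SPF replicates 1 to 3 and 0 in SPR and DP. Against the floor, SPR and DP were at least 13.8-fold and 9.71-fold lower than the 30 summed SPF counts (lower 95% counting limits 10.5 and 7.42). Its calls (edgeR adjusted p = 0.0299 and 0.0499) were lost without any 1 library of SPR or DP and without SPF replicate 2. They were also lost with a filter of more than 10 CPM in at least 1 library. The DP call was lost as well with library totals and with only the groups compared. With the block, Prf1 was higher in DP than in SPR (1.40 ± 0.31, edgeR adjusted p = 0.0215). Of 7 tested NK-type receptors outside the lectin family, Fcgr3 (CD16) alone was called, lower in SPR and in DP. Its call was lost in both without SPF replicate 2, which held 91 of its 134 SPF counts, and also without SPR replicate 2, SPR replicate 3, SPF replicate 1 (in DP) or any 1 of the DP libraries. With only the groups compared, the Fcgr3 call was lost in both as well. The median of this list was -1.58 in SPR and 0.23 in DP. With the block, Cd96 was among the genes of this list that were higher in DP than in SPR (1.77 ± 0.44, edgeR adjusted p = 0.0363). Cd96 was not called without the block (edgeR adjusted p = 0.793). It had 16, 5 and 50 counts in SPR replicates 1 to 3 and 9, 72 and 74 in DP replicates 1 to 3. Its level was thus lower in DP in pair 1, and pairs 2 and 3 carried the difference.

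Of 14 tested transcription regulators of NK and effector programmes, 2 were higher and 4 lower than in SPF in each Th17-culture population. Nfil3 was higher in both, Id2 in SPR and Batf in DP, and Gata3, Id3, Tox and Zbtb32 were lower in both. The median log2 change was 0.15 in SPR and 0.10 in DP. Gata3 (-2.43 ± 0.32 in SPR and -1.74 ± 0.32 in DP) and Id3 (-2.29 ± 0.24 and -1.79 ± 0.24) were among those lower in both (edgeR adjusted p = 0.000559, 0.00608, 0.000150 and 0.000965). Nfil3, which NK cell development requires, was at 70.9 ± 27.8 CPM in SPR, 64.8 ± 15.3 in DP and 15.3 ± 13.3 in SPF (SD, n = 3). Its log2 change was 2.18 ± 0.46 in SPR (edgeR adjusted p = 0.00922) and 2.02 ± 0.46 in DP (edgeR adjusted p = 0.0189), the latter lost without DP replicate 2, SPF replicate 1 or SPF replicate 2. The call of Tox was lost without SPR replicate 2 in SPR, and in DP without DP replicate 2, DP replicate 3, SPF replicate 1 or SPF replicate 2. That of Zbtb32 was lost in SPR without SPR replicate 1, SPR replicate 3 or SPF replicate 2. With the block, Gata3 was higher in DP than in SPR (0.72 ± 0.17, edgeR adjusted p = 0.0254).

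Genes whose levels ran most like the receptors were named by the highest Pearson correlation of log2(CPM + 1) over the 9 libraries, among the 9404 genes that averaged 5 CPM or more. The libraries share their groups and their totals, so these values describe the pattern and carry no test. For Klrd1 the closest were 1110008L16Rik (0.994), Cnot7 (0.982), Tmem65 (0.976), Tor2a (0.974) and Dph7 (0.973). These genes had the order of Klrd1 with smaller folds, and Cnot7, for example, was at 46.4 ± 5.15 CPM in SPR, 58.6 ± 1.99 in DP and 28.3 ± 3.50 in SPF (SD, n = 3).

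For Klre1 the closest were Mfsd2a (0.991), Alpk2 (0.991), 4932438H23Rik (0.990), Znhit3 (0.990) and Gcnt2 (0.988). Alpk2 was at 67.1 ± 23.7 CPM in SPR, 57.3 ± 11.8 in DP and 0.922 ± 0.930 in SPF, so it shared both the even SPR and DP levels of Klre1 and its low SPF level. For the sum of the receptors the closest included Cldnd1 (0.992), Dph7 (0.984), Cpox (0.982) and Gm17767 (0.981). Cldnd1 was at 304 ± 17.0 CPM in SPR, 447 ± 76.2 in DP and 63.1 ± 11.9 in SPF (SD, n = 3). With Spearman's rank correlation, 2 of the 5 closest genes stayed among the closest 5 for Klrd1, 1 for Klre1 and 0 for the sum.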

How the data were processed

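RNA was counted in 9 libraries of sorted mouse T cells, 3 each of SPR, DP and SPF, grouped and numbered by the submitters' labels. The authors prepared 3′ MARS-seq libraries and aligned them to mm10. The table, as deposited, holds unnormalized counts for each gene, made with cutadapt, STAR, SAMtools and HTSeq per the labels. For their versions, the annotation, the strand setting and molecular identifiers, the sources used here say nothing. Without a strand setting, reads of antisense genes cannot be told apart. An unnamed line of totals and 1 count column without a sample were not used.

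The receptors and all lists were chosen with earlier results of these data known. Receptors were taken without a low-count filter, as CPM by column total and as summed counts with exact 95% intervals on ratios (Clopper-Pearson), and no test of them is given. No libraries were copies of each other. For the genes with a summed count of at least 10, a quasi-likelihood model of all 9 libraries was fitted in edgeR 4.0.16 (R 4.3.3; group as the only term, TMM factors 0.953 to 1.04) and p-values were adjusted over the 13807 genes. Klrd1 and Klre1 were among the genes fitted, and their values from the fit are not given. The script was tested on simulated data. The study's own filter of more than 10 CPM in at least 1 library was an alternative. Called list genes were named by size of change, at most 4 per list and comparison, with all marker lists and the 5 genes most like the receptors. Where calls with the block are given, these genes were added after their values were seen.

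To see if the replicate numbers mark pairs, each library's deviations from its group mean were correlated with those of the same number in another group. This gave 0.24, 0.42 and 0.43 for SPR and DP, -0.14 to 0.099 for SPR and SPF and -0.18 to 0.14 for DP and SPF, so the block was fitted for SPR and DP, an alternative chosen after seeing the data (so were index pseudocounts of 0.1 and 5). The labels number biological replicates, and do not say whether each came from its own animal. p-values thus measure the spread between these libraries. Other alternatives were RLE factors, library totals, DESeq2 1.42.0, no filter, only the groups compared, and each library left out. Sequences are from RefSeq, where promoters of Klre1, Klrk1, Klrc1 and Klrc2 matched. Values of a few other genes that fall under the naming rule are not reported here.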

Additional observations from a re-analysis of the deposited data

How the results depend on the processing

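Among the receptors, the Klre1 ratios of mean CPM against SPF moved most with a library left out, from 21.6 to 58.6 in SPR and from 22.5 to 61.1 in DP, both without SPF replicate 3. For the partner genes, 670 of 759 alternatives kept direction and call, 89 lost the call and 0 reversed. Main counts of called genes were 1633 for SPR against SPF, 1239 for DP against SPF and 1 for DP against SPR, where 845 genes had an unadjusted p under 0.05. Without the count filter they were 2479, 2137 and 211. With each library left out, the counts ran from 904 to 2168, from 562 to 1810 and from 1 to 6, with the lowest counts of the first pair of comparisons when SPR replicate 2 and DP replicate 2 were left out, respectively. For DP against SPR, DESeq2 called 43 genes and a fit of only these groups 6. The replicate block over all 9 libraries gave 14, and the block on the SPR and DP libraries alone 366. Why the counts differ was not tested. With the index pseudocount at 0.1 and 5, Klrd1 had 2.16 and 3.10. Depth limits Klrk1, Klrc1 and Klrg1, for which a group at 0 counts allows up to 0.335 to 0.475 CPM.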
